A study of Mus musculus with 12 samples.

Results

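The genes described here are 33 members of the p53 pathway: Trp53 itself, the genes that restrain its protein, and direct targets that act in cell cycle arrest, DNA repair and cell death. They were found by gene symbol among the 45664 rows of a table of raw counts from whole embryonic mouse hearts. All 33 had a row, and all 33 were among the 20691 genes with enough counts to be tested. They were set out in arms by known role: 4 regulators of p53, 7 arrest genes, 5 genes of DNA repair and nucleotide supply, 13 cell death genes, and 4 genes of metabolism, RNA binding and stress signals.

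The hearts came from 12 mouse embryos, 1 library each, in 4 groups of 3: wild type (WT) and Ino80-disrupted (KO), each on embryonic days E13.5 and E14.5. Ino80 encodes the ATPase of the INO80 chromatin remodeller, and the labels place its disruption in the endothelium, through Tie2. The labels give neither the strain nor the deleted part of the gene, and they do not say whether WT embryos carried a floxed allele or Cre. Tie2 is also active in blood cell lineages, and whole hearts hold cardiomyocytes and other cells beside the endothelium, so a whole-heart level mixes disrupted and undisrupted cells. Litter 1 gave all 6 E13.5 embryos, litter 3 gave WT 7.2 and KO 1 of E14.5, and litter 2 gave the other 4 of that stage, so stage and litter cannot be told apart. Values in single embryos are listed in a fixed order: at E13.5 WT replicates 1, 4, 2 and KO replicates 3, 5, 7, and at E14.5 WT replicates 8, 7, 7.2 and KO replicates 2, 4, 1. Totals ran from 46556032 to 182545647 counts per library. The tissue label fitted its markers: 12 cardiomyocyte genes summed to at least 24600 CPM in every heart and 12 endothelial genes to at least 1100 CPM, while 6 liver genes summed to at most 5.39 CPM.

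The p53 protein is a transcription factor that is kept scarce by Mdm2, a ubiquitin ligase that is itself a p53 target, and by its relative Mdm4. DNA damage and other stresses release p53 from this loop. It then switches on genes that halt the cell cycle, repair DNA or start apoptosis, and which of these a cell favours depends on the cell type and the strength of the stress. Mouse embryos that lack Mdm2 or Mdm4 die unless p53 is lost as well.

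Levels are given as CPM, the library-scaled counts of edgeR, and differences as log2 fold changes with their standard errors (SE) from edgeR's quasi-likelihood test. A gene was called at an adjusted p under 0.05, with Benjamini-Hochberg adjustment over all genes tested. Ino80 itself had 36.6, 33.8 and 30.7 CPM in E13.5 WT hearts, and 29.6 in each of the KO embryos. At E14.5 it had 33.9, 31.4 and 30.8 CPM in WT and 27.0, 29.5 and 31.9 in KO. Its averaged log2 fold change of -0.15 ± 0.06 (SE) was not called (adjusted p = 0.22), and the E14.5 groups overlapped.

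To show where p53 motif letters do and do not lie near the start of these genes, the 250 bases before a transcription start are printed for 5 of them, read 5′ to 3′ on the gene's strand, from RefSeq windows on GRCm38.p6. Cdkn1a, Bax and Eda2r rose in KO hearts, Ccng1 carried a close match without a KO call, and Mdm2 is the feedback gene. Where RefSeq gives a gene several starts, the window with the most matches is shown. Capitals mark the p53 decamer, the consensus of 1 of the paired sites that p53 binds, together with any partner decamer up to 13 bases away that brings no more than 2 mismatches in all.
Cdkn1a, chr17:29090729-29090978, plus strand: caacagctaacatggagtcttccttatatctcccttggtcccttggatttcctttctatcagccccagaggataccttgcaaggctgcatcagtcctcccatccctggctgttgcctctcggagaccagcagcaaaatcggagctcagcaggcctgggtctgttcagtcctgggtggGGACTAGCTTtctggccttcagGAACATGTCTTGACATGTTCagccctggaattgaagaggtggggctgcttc
Bax, chr7:45466899-45467148, minus strand: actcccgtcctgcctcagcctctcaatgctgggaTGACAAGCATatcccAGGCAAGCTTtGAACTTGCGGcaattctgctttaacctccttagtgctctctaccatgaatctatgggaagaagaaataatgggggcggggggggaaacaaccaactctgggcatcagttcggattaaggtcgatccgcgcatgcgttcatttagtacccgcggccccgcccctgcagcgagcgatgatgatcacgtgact
Ccng1, chr11:40755287-40755536, minus strand: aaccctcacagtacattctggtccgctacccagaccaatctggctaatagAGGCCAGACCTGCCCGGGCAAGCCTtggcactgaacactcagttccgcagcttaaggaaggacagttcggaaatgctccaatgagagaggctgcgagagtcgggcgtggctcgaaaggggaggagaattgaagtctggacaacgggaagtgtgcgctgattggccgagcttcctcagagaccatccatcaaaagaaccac
Mdm2, chr10:117710759-117711008, minus strand: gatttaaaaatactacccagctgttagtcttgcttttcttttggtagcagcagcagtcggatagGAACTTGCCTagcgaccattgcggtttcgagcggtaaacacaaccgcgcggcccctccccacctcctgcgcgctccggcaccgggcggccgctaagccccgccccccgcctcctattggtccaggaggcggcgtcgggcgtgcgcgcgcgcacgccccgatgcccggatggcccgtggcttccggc
Eda2r, chrX:97377210-97377459, minus strand: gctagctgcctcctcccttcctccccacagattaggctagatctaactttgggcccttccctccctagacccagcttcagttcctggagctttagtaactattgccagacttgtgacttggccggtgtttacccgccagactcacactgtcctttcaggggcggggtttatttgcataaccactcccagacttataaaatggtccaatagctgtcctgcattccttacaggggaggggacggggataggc

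The Cdkn1a stretch holds a perfect decamer that begins 51 bases before the start and adjoins a partner with 1 mismatch, and another perfect decamer that begins 73 bases before the start. The window of the other RefSeq start of Cdkn1a holds none. The Ccng1 stretch also holds adjoining decamers with 1 mismatch, and Bax holds a perfect decamer flanked by imperfect ones. The Mdm2 stretch holds a single decamer, and the Eda2r stretch holds none. A RefSeq window, of 300 bases that include 50 after the start, was found for 25 of the 33 genes, in 34 windows, and 11 of the 25 held the decamer in any window. The decamer, searched on both strands, lay in 12 of those windows (35.3%) and in 8.36% of 32841 windows of all genes. Paired decamers lay in 5 of the 34 (14.7%), those of Bax, Ccng1, Cdkn1a, Gadd45a and Sesn1, against 4.09% of all windows. The genes were chosen as p53 regulators and known direct targets, so their larger shares follow from that choice and are not a finding of these data. These are matches of letters, not measured binding, and sites farther upstream or in introns were not searched.

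Averaged over both stages, 4 of the 33 genes rose in KO hearts and none fell: Eda2r, Zmat3, Cdkn1a and Bax. Across all genes 0.831% were called as higher and 1.42% in either direction. Eda2r, a receptor of the TNF receptor family that binds ectodysplasin A, rose 3.02-fold. Cdkn1a, the inhibitor of cyclin-dependent kinases known as p21, rose 1.77-fold, and Zmat3, an RNA-binding splicing regulator, rose 1.40-fold. Bax, which permeabilises the mitochondrial membrane, rose 1.21-fold. The median of the 33 averaged log2 fold changes was 0.14, against 0.00 for all genes, and 25 of 33 were above 0, against 49.3% of all genes.

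**Figure D1:**
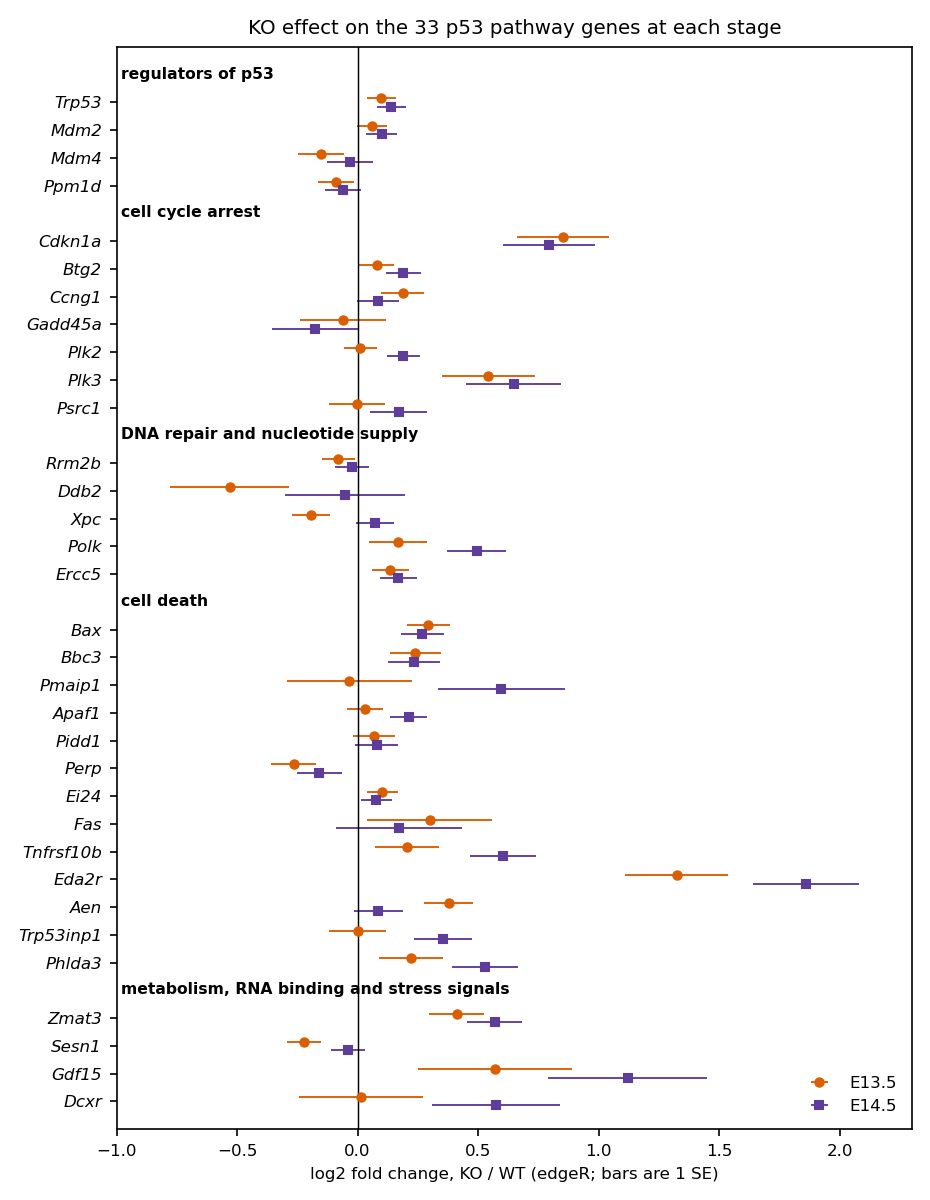
Log2 fold change of KO over WT hearts for the 33 genes in their arms, at E13.5 (circles) and E14.5 (squares), with bars of 1 SE from edgeR. Eda2r lies farthest to the right at both stages (1.32 and 1.86), while the 4 regulators lie between -0.15 and 0.14.

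Among the 4 regulators, none was called between KO and WT at either stage or averaged, by edgeR or by DESeq2, and 1, Trp53, had an unadjusted p under 0.05 in the averaged comparison (14.7% of all genes). Trp53 had 65.0, 67.3 and 64.1 CPM in E13.5 WT hearts and 72.6, 66.2 and 71.3 in KO. The E14.5 levels were 55.5, 50.9 and 53.01 CPM in WT and 57.8, 61.3 and 56.6 in KO. The groups overlapped at E13.5 and did not at E14.5. The averaged log2 fold change of Trp53 was 0.12 ± 0.04 (SE) (adjusted p = 0.203).

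Mdm2, both the main brake on p53 and one of its targets, had 52.5, 54.1 and 48.6 CPM in E13.5 WT hearts and 54.7, 54.8 and 52.5 in E13.5 KO hearts. On E14.5 there were 51.4, 53.8 and 50.7 CPM in WT and 59.1, 55.2 and 52.8 in KO. The groups overlapped at both stages. Its averaged log2 fold change was 0.08, with a 95% interval from -0.02 to 0.18 and an adjusted p of 0.421. The interval leaves out the fold changes of Cdkn1a, Zmat3, Eda2r and Bax, though it overlaps the interval of Bax (0.14 to 0.42). Mdm4, which blocks the activation domain of p53, and Ppm1d, the phosphatase that dampens damage signalling, had averaged values of -0.09 and -0.08, neither called. The E13.5 KO hearts were all below the E13.5 WT hearts for Ppm1d (20.9 to 22.1 against 22.2 to 23.7 CPM), but not at E14.5.

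Of the 7 arrest genes, 1 rose, 6 lay above 0, and their median averaged log2 fold change was 0.13. Cdkn1a had 19.9, 23.4 and 22.5 CPM in E13.5 WT hearts and 36.8, 41.3 and 40.6 in KO. Its E14.5 values were 29.1, 26.7 and 28.5 CPM in WT and 67.5, 33.8 and 44.9 in KO. KO and WT did not overlap at either stage, and KO replicate 2 stood highest of all 12 hearts. The averaged log2 fold change was 0.82 ± 0.13 (SE) (adjusted p = 0.0134). The effects at the separate stages, 0.85 ± 0.19 and 0.79 ± 0.19 (SE), were not called (adjusted p = 0.169 and 0.149). DESeq2 called both (adjusted p = 0.000697 and 0.00175). By edgeR the E13.5 effect was also called with only the E13.5 libraries (0.00701), without E14.5 KO replicate 2 (0.00552) or 4 (0.0231), and without both KO hearts lowest in leukocyte RNA, replicate 5 of E13.5 and replicate 2 of E14.5 (0.0229), and the E14.5 effect without E14.5 KO replicate 4 (0.0142). The averaged call was lost without litter 3 (0.86, adjusted p = 0.0509). Of Cdkn1a exon length, 7.7% is shared with a gene model on the opposite strand.

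Plk3, a stress-responsive polo-like kinase, was low but separated the genotypes. Its E13.5 WT hearts had 2.15, 2.15 and 2.61 CPM and its E13.5 KO hearts 3.44, 3.49 and 3.12. At E14.5 it had 2.499, 2.39 and 1.69 CPM in WT and 3.65, 2.75 and 3.89 in KO. Its averaged log2 fold change of 0.59 ± 0.14 (SE) missed the threshold (adjusted p = 0.0516). It passed by DESeq2 (0.00122), with the Y-linked covariate (0.044), with no low-count filter (0.0474) and without E14.5 KO replicate 4 (0.0301).

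The remaining arrest genes had smaller values. The antiproliferative gene Btg2, the cyclin Ccng1 and the polo-like kinase Plk2 had averaged log2 fold changes of 0.13, 0.14 and 0.10. Psrc1, which binds spindle microtubules, had 0.08, and Gadd45a, a growth arrest and damage response gene, had -0.12, with 19.1% of its exon length shared with a noncoding gene on the opposite strand. None of these 5 was called, but without litter 3 Ccng1 was (adjusted p = 0.0434). Ccng1 was the most abundant of the 33 genes per length of exon, at 67.2 CPM per kilobase, and its E13.5 KO hearts (215.7 to 226.7 CPM) all lay above the E13.5 WT hearts (186.7 to 205.6 CPM).

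**Figure D2:**
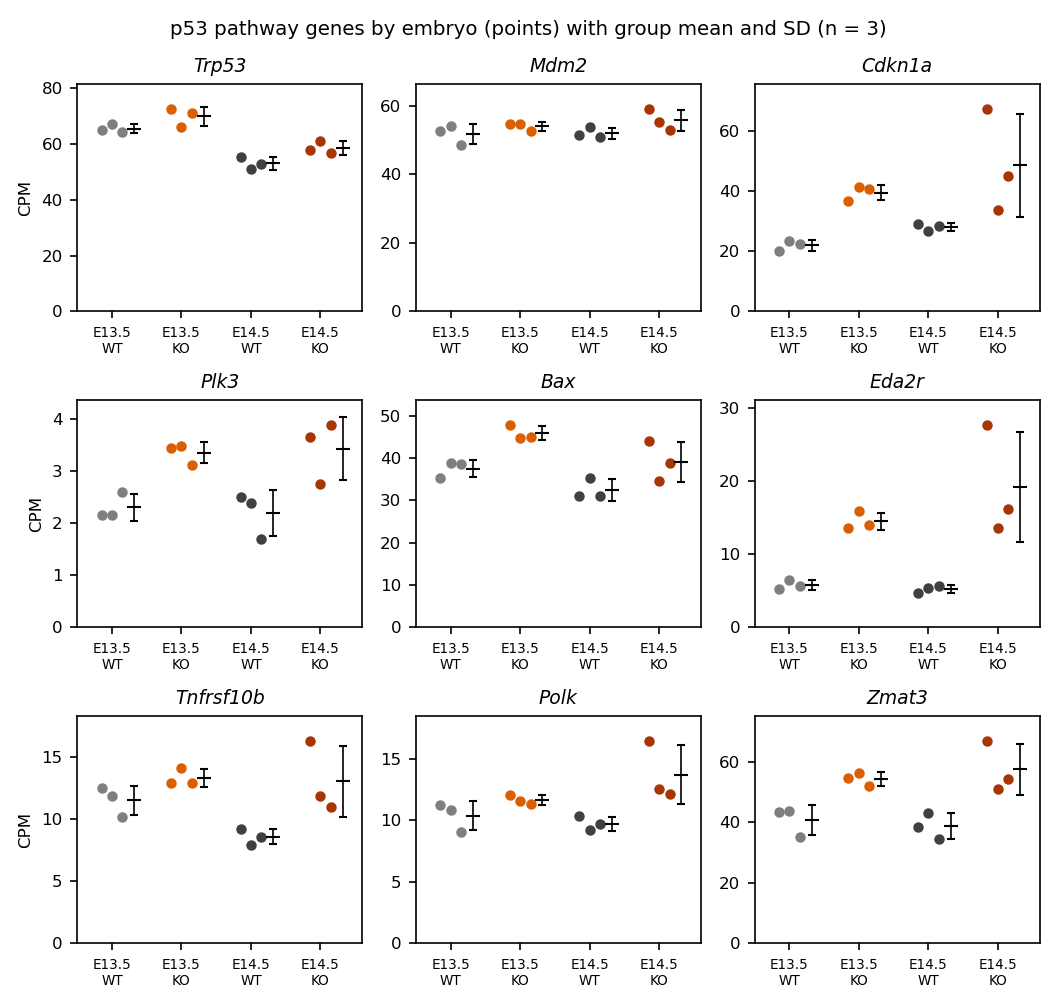
CPM of 9 genes in each heart (points; 3 embryos per group, in the order of replicates given in the text) with the group mean and SD beside them. Cdkn1a and Eda2r separate KO from WT at both stages, Eda2r at 13.6 to 27.7 against 4.68 to 6.504 CPM, whereas Mdm2 overlaps at both.

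The DNA repair and nucleotide supply arm held no gene called by edgeR, and 2 of its 5 genes lay above 0 in the averaged comparison (median -0.05), both with an unadjusted p under 0.05. DESeq2 called 1, Polk (adjusted p = 0.0181), which edgeR called without E14.5 KO replicate 1 (0.0458). Polk, a translesion DNA polymerase, had 11.3, 10.8 and 9.02 CPM in E13.5 WT hearts and 12.1, 11.5 and 11.3 in E13.5 KO hearts. The E14.5 levels were 10.3, 9.17 and 9.68 CPM in WT and 16.4, 12.5 and 12.1 in KO. KO lay above WT at both stages, narrowly at E13.5, and the averaged log2 fold change was 0.33 ± 0.09 (SE) (adjusted p = 0.0809).

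None of the nucleotide excision repair genes was called. Xpc, the damage sensor, had averaged -0.06, Ercc5, the endonuclease, had 0.15, and Ddb2, which recognises ultraviolet lesions, had -0.29. Rrm2b, the p53-inducible ribonucleotide reductase subunit, had -0.05. Xpc was lower in all E13.5 KO hearts (17.2 to 19.0 against 19.7 to 21.3 CPM) and overlapped at E14.5. Ercc5 was higher in all E13.5 KO hearts (21.5 to 21.8 against 18.9 to 21.0 CPM) and also overlapped at E14.5. Ddb2 was low in every group (1.99 to 4.28 CPM), and 23.8% of its exon length is shared with Acp2 on the opposite strand. How the counting used strand is not given here, so reads of such pairs cannot be told apart.

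The cell death arm was the largest, with 13 genes, of which 12 lay above 0 in the averaged comparison (median 0.23) and 2 rose. Eda2r had 5.20, 6.504 and 5.69 CPM in E13.5 WT hearts and 13.6, 15.9 and 14.0 in KO. On E14.5 there were 4.68, 5.41 and 5.72 CPM in WT and 27.7, 13.6 and 16.2 in KO. Every KO heart was above 2 times the level of every WT heart of either stage. The averaged log2 fold change was 1.59 ± 0.15 (SE) (adjusted p = 0.000609), a call that stood in all 20 alternatives tried.

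In edgeR's fit of all libraries, Eda2r was also the only one of the 33 genes called at a single stage, with 1.32 ± 0.21 (SE) at E13.5 (adjusted p = 0.0465) and 1.86 ± 0.22 (SE) at E14.5 (adjusted p = 0.00616). Other fits called more: Zmat3 passed at E14.5 with litter as a block (adjusted p = 0.0422), with the Y-linked covariate (0.0188) and with no low-count filter (0.0294), and DESeq2 called 3 of the 33 at E13.5 and 6 at E14.5. Of all genes, 0.0193% were called as higher at E13.5 and 0.145% at E14.5, or 0.106% and 0.222% in either direction. The E13.5 call was lost without each of the 6 E13.5 hearts in turn (adjusted p 0.133 to 0.206) and each of the 3 E14.5 WT hearts (0.0674 to 0.0792), without litter 3 (0.0508) and with no low-count filter (0.0513), and the E14.5 call with only the E14.5 libraries (0.14). Eda2r is X-linked and the hearts were of both sexes: Y-linked genes were expressed in E13.5 WT replicate 2, KO replicates 3 and 7, E14.5 WT replicate 7.2 and KO replicate 4. A fit with the Y-linked level as covariate gave an E13.5 log2 fold change of 1.39 (adjusted p = 0.0635).

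Bax had 35.2, 38.8 and 38.5 CPM in E13.5 WT hearts and 47.9, 44.7 and 45.1 in E13.5 KO hearts. Its E14.5 values were 31.1, 35.3 and 31.0 CPM in WT and 44.0, 34.5 and 38.8 in KO, where KO replicate 4 lay within the WT range. Its averaged log2 fold change was 0.28 ± 0.06 (SE) (adjusted p = 0.0456). The call was lost in 10 of the 12 fits that left out 1 heart, at adjusted p up to 0.117, and without litter 3 (0.27, adjusted p = 0.0879). Of Bax exon length, 12.2% is shared with the predicted gene Gm45808 on the same strand.

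No other gene of the arm passed the averaged test in edgeR's fit of all libraries. Tnfrsf10b, the mouse TRAIL receptor, had 10.2 to 12.5 CPM in E13.5 WT hearts and 12.9 to 14.1 in KO, and 7.95 to 9.18 against 11.01 to 16.3 at E14.5, with no overlap at either stage. Its averaged log2 fold change was 0.41 ± 0.10 (SE) (adjusted p = 0.0566). Tnfrsf10b was called with litter as a block (0.0495), with the Y-linked covariate (0.0424), with no low-count filter (0.0338), without E14.5 KO replicate 1 (0.023) or 4 (0.0474) and by DESeq2 (0.00547). Phlda3, which inhibits the survival kinase Akt, had 0.37 (adjusted p = 0.0781, and 0.00964 by DESeq2). Aen, an apoptosis-enhancing nuclease, had 0.23 and was called without E14.5 KO replicate 4 (adjusted p = 0.0311). Bbc3, known as PUMA, had 0.24 and also did not overlap at either stage (6.48 to 7.85 against 8.10 to 8.67 CPM, then 5.73 to 6.60 against 7.05 to 7.52).

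Pmaip1, known as Noxa, had averaged 0.28, with 2 of the 3 E14.5 KO hearts at 3.43 and 2.89 CPM and the third at 1.61, among the WT values. Fas, another death receptor, was near 1 CPM throughout (0.831 to 1.51) and had 0.23. Apaf1, the apoptosome scaffold, had 0.12, Trp53inp1, a cofactor in stress responses, had 0.18, Ei24, a membrane protein of the endoplasmic reticulum, had 0.09, and Pidd1, a death-domain adaptor, had 0.07. The exception in direction was Perp, a desmosome-associated membrane protein, at -0.21 ± 0.07 (SE) (adjusted p = 0.141). Its E13.5 KO hearts were all lower (84.5 to 92.6 against 100.7 to 113.0 CPM), while the E14.5 groups overlapped. With litter as a block, the Perp value was the same and was called (adjusted p = 0.03).

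In the last arm, 1 of 4 genes rose and the median averaged log2 fold change was 0.39. Zmat3 had 43.4, 43.7 and 35.1 CPM in E13.5 WT hearts and 54.6, 56.2 and 51.9 in E13.5 KO hearts. At E14.5 it had 38.4, 43.1 and 34.4 CPM in WT and 66.8, 51.1 and 54.2 in KO. The genotypes did not overlap at either stage, and the averaged log2 fold change was 0.49 ± 0.08 (SE) (adjusted p = 0.0106).

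Gdf15, a secreted stress cytokine, was scarce, at 0.747 to 0.993 CPM in all WT hearts. Its KO hearts had 1.13, 1.64 and 1.36 CPM at E13.5 and 2.55, 0.862 and 1.71 at E14.5, above the WT hearts of their stage. KO replicate 4 at E14.5 was barely above, and the averaged 0.84 ± 0.23 (SE) was not called (adjusted p = 0.0937), but it was by DESeq2 (0.0149) and without that heart (0.0171). Dcxr, a carbonyl reductase, had 0.29, and Sesn1, a sestrin that restrains growth signalling, had -0.13, neither called. Sesn1 was lower in all E13.5 KO hearts (34.4 to 35.0 against 39.6 to 41.5 CPM) and overlapped at E14.5.

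Counting hearts rather than fits, 12 of the 33 genes had every KO heart above every WT heart at E13.5, and 15 did at E14.5. Of all genes 8.44% and 6.81% did so. At both stages 8 did: Cdkn1a, Plk3, Polk, Bbc3, Tnfrsf10b, Eda2r, Zmat3 and Gdf15, or 2 of the arrest arm, 1 of the repair arm, 3 of the death arm and 2 of the last arm, against 1.75% of all genes. In the other direction 4 genes had every KO heart below every WT heart at E13.5 (Ppm1d, Xpc, Perp and Sesn1; 11.2% of all genes) and none at E14.5 (5.87%) or at both (1.5%). By sign alone, 23 genes were above 0 at both stages, 7 were below 0 at both, and 3 (Psrc1, Xpc and Pmaip1) were below 0 at E13.5 and above at E14.5.

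**Figure D3:**
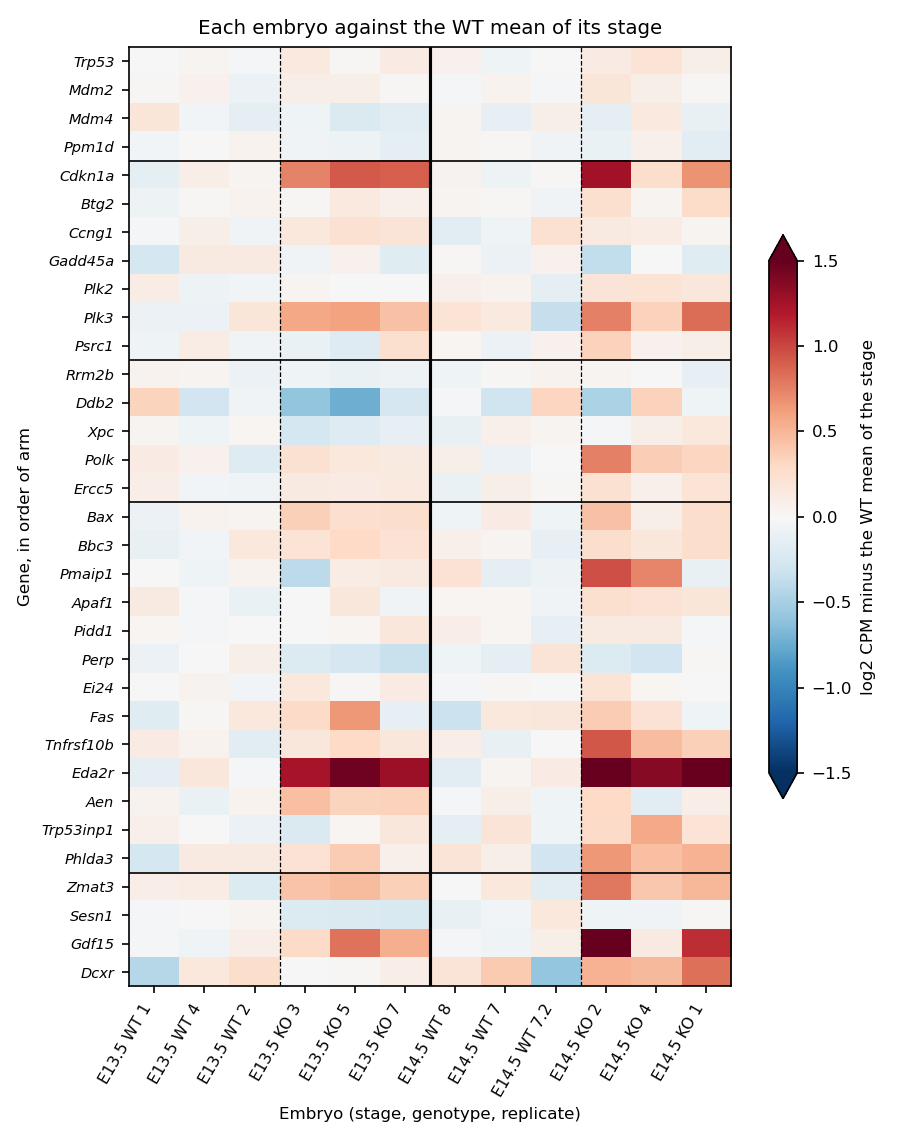
Log2 CPM of the 33 genes in each heart minus the WT mean of its stage (colour, limited to 1.5 either way), with genes in the order of their arms and a solid line between stages. Eda2r and Cdkn1a are raised in every KO heart, and E14.5 KO replicate 2 has 10 genes more than 0.5 above the WT mean, a count not taken over all genes.

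The KO hearts differed in how far the pathway departed from WT. The median deviation over the 33 genes from the WT mean of the stage was 0.08, 0.11 and 0.12 log2 units in E13.5 KO replicates 3, 5 and 7, and 0.24, 0.15 and 0.16 in E14.5 KO replicates 2, 4 and 1. WT hearts lay between -0.01 and 0.02, but their own mean was the reference. Their values are thus held near 0 and do not measure the spread of WT hearts. E14.5 KO replicate 2 had the highest level of its stage for 17 of the 33 genes, and E13.5 KO replicate 5 for 13. Neither the deviations nor these ranks were taken over all genes. Whether these hearts departed from WT in the pathway more than in other genes was therefore not tested.

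The same hearts had the least RNA of macrophage and leukocyte genes. The 18 markers summed to 15.6 CPM in E13.5 KO replicate 5 and 26.1 CPM in E14.5 KO replicate 2, against 113.4 to 148.5 CPM in the 6 WT hearts and 47.8 to 153.1 in the other KO hearts. All 18 had a log2 fold change below 0 at E13.5 (median -1.665) and 14 of 18 at E14.5 (median -0.13). For 16 of the 18, every E13.5 KO heart lay below every E13.5 WT heart (11.2% of all genes). At E14.5 this held for 0 of the 18 (5.87% of all genes). None was called by edgeR, 9 had an unadjusted p under 0.05 at E13.5 (10.3% of all genes) and none at E14.5 (9.59%), and DESeq2 called Cd48 as lower at E13.5. Cd48 in E13.5 KO replicate 5 was the only marker at 0 in any heart. In whole-heart RNA, fewer cells of a type and less RNA per cell cannot be told apart. Without both of these hearts, 2 members rose in the averaged comparison, Eda2r and Cdkn1a, and calls over all genes went from 293 of 20691 to 63 of 21213. Zmat3 then had 0.41 (adjusted p = 0.0581) and Bax 0.24 (adjusted p = 0.167). The part of leukocyte content in these values was not tested.

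**Figure D4:**
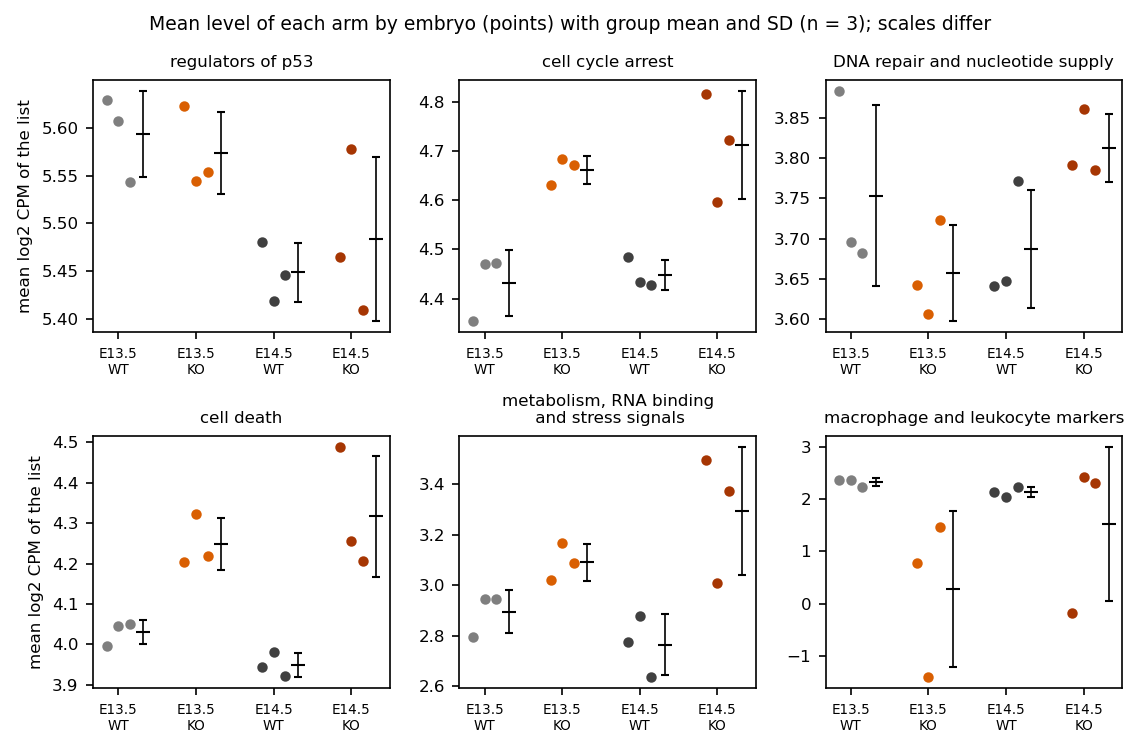
Mean log2 CPM of each arm and of 18 macrophage and leukocyte markers in each heart (points), with the group mean and SD of 3 embryos, on separate scales. The death arm of KO hearts (4.20 to 4.49) lies above that of WT hearts (3.92 to 4.05), while the regulators overlap.

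As the plot of arm means shows, the mean log2 CPM of the death genes was 3.996 to 4.05 in E13.5 WT hearts and 4.20 to 4.32 in KO hearts, and 3.92 to 3.98 against 4.21 to 4.49 at E14.5. The arrest genes had 4.35 to 4.47 against 4.63 to 4.68, then 4.43 to 4.48 against 4.60 to 4.82. Most of that arm's difference lay in Cdkn1a and Plk3, with log2 fold changes of 0.85 and 0.54 at E13.5 and 0.79 and 0.65 at E14.5. The other arrest genes lay between -0.06 and 0.19 at E13.5 and between -0.18 and 0.19 at E14.5. The repair genes were at 3.68 to 3.88 against 3.61 to 3.72 at E13.5, where the groups overlapped, and at 3.64 to 3.77 against 3.79 to 3.86 at E14.5, where they did not. The regulators overlapped at both stages. These arm means weight each gene equally and carry no test.

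Whether the KO effect differed between stages was tested for each gene by the interaction, the E14.5 effect minus the E13.5 effect. None of the 33 genes was called, and none of all genes was (0.0%). At an unadjusted p under 0.05 there was 1 member, Xpc (0.27 ± 0.11 SE, adjusted p = 0.997), against 3.61% of all genes, and DESeq2 called no member either. The median of the 33 interaction values was 0.11. The values of Eda2r and Tnfrsf10b were 0.54, with a 95% interval from -0.12 to 1.20, and 0.40, from -0.01 to 0.81.

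Between E13.5 and E14.5, 5 of the 33 genes changed in WT hearts and 4 in KO hearts, against 4.04% and 3.74% of all genes. Stage and litter cannot be told apart in these comparisons. The litter block had a term for litter 3 only, so under it a stage difference is still that of litter 2 from litter 1. Trp53 fell in both genotypes, by 0.30 ± 0.06 (SE) on the log2 scale in WT (adjusted p = 0.0257) and by 0.26 ± 0.06 (SE) in KO (adjusted p = 0.0361), and every E14.5 heart was below every E13.5 heart of its genotype. These calls stood in 14 of 21 alternatives in WT and 8 of 21 in KO, and both were lost with litter as a block (adjusted p = 0.0507 and 0.0778) and without litter 3 (0.0742 and 0.0667). Pidd1 also fell in both. It had 15.2, 14.51 and 14.8 CPM in E13.5 WT hearts and 12.0, 11.4 and 10.2 at E14.5. In KO hearts it had 14.8, 15.1 and 16.7 CPM, then 12.3, 12.2 and 10.9. Its values were -0.41 ± 0.09 (SE) (adjusted p = 0.0318) in WT and -0.39 ± 0.09 (SE) (adjusted p = 0.0326) in KO. They stood in 13 of 21 alternatives in WT and 12 of 21 in KO, and were lost with litter as a block (0.0582 and 0.0634), without litter 3 (0.101 and 0.0551) and with only the libraries compared (0.0506 and 0.0811).

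Perp rose with stage in both genotypes. WT hearts had 100.7, 106.7 and 113.0 CPM at E13.5 and 146.4, 139.7 and 175.3 at E14.5, and KO hearts 92.6, 89.5 and 84.5, then 133, 125.8 and 154.6. The log2 fold changes were 0.53 ± 0.09 (SE) (adjusted p = 0.022) and 0.63 ± 0.09 (SE) (adjusted p = 0.00721). The KO call stood in all 21 alternatives, while the WT call was lost without E13.5 WT replicate 1 or 4 or E14.5 WT replicate 7.2.

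The other calls were in 1 genotype only, and the interaction did not separate the genotypes for any of them. Plk2 fell by 0.39 ± 0.07 (SE) in WT (adjusted p = 0.0198), from 163.8, 144.6 and 147.7 CPM to 122.1, 120.5 and 105.5, and in KO it went from 156.5, 150.7 and 152.7 CPM to 132.8, 133.4 and 130.7, not called (adjusted p = 0.0991). The WT call of Plk2 was lost without litter 3 (0.0624) and without E13.5 WT replicate 1 (0.0881) or 4 (0.0609) or E14.5 WT replicate 7.2 (0.0886). Ccng1 rose by 0.40 ± 0.09 (SE) in WT (adjusted p = 0.0326), from 190.1, 205.6 and 186.7 CPM to 226.7, 243.5 and 299.6, the highest in litter 3. The call stood in 13 of 21 alternatives and was lost with litter as a block (adjusted p = 0.0717), without litter 3 (0.27, adjusted p = 0.0865) and without E14.5 WT replicate 7.2 (adjusted p = 0.131). In KO its levels were 215.7, 226.7 and 221.0 CPM, then 278.9, 275.0 and 262.3 (adjusted p = 0.0795). Sesn1 rose by 0.44 ± 0.07 (SE) in KO (adjusted p = 0.0111), from 35.0, 34.8 and 34.4 CPM to 46.0, 46.5 and 48.7, a call lost without E13.5 KO replicate 7 (adjusted p = 0.0511) and without both KO hearts lowest in leukocyte RNA (0.0542). In WT it had 39.6, 40.3 and 41.5 CPM, then 44.5, 46.95 and 53.8, which did not overlap and missed the threshold (adjusted p = 0.0568, and 0.0157 by DESeq2).

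**Figure D5:**
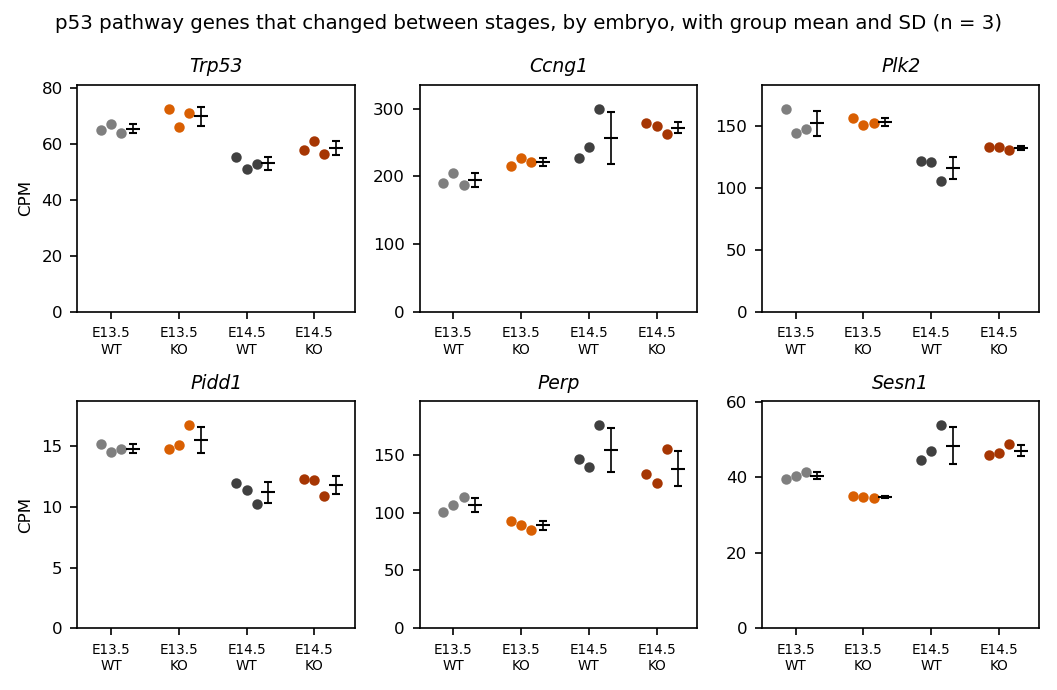
CPM of the 6 genes that changed between stages in either genotype, in each heart (points), with the group mean and SD of 3 embryos. Trp53, Plk2 and Pidd1 are lower at E14.5 and Ccng1, Perp and Sesn1 higher, with no overlap between stages within either genotype.

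Other genes of the pathway, listed apart from the 33, were read in the same comparison. Of 25 further p53 targets, 13 lay above 0 in the averaged comparison (median 0.07), and Zfp365 was among those that rose (1.09 ± 0.25 SE, adjusted p = 0.0477). At an unadjusted p under 0.05, 8 were above 0 and 2 below (14.7% of all genes in either direction). At both stages every KO heart lay above every WT heart for 5 (1.75% of all genes) and below for 2 (1.5%). DESeq2 called 6 as higher and 0 as lower, of 910 genes called in all. Of 26 tested genes of damage signalling and p53 control, such as the kinases Atm and Atr, none was called by edgeR or DESeq2, and 7 lay above 0 (median -0.04, with 3 below 0 and none above at an unadjusted p under 0.05). Of 20 cell cycle genes that p53 is known to repress through p21 and the DREAM complex, none was called by edgeR or DESeq2, none had an unadjusted p under 0.05, and the median was 0.03. Of 20 BCL2 family, caspase and related death genes, 8 lay above 0 (median -0.02), and 1 rose: Mlkl, the executor of necroptosis, by 1.43 ± 0.16 (SE) (adjusted p = 0.000683). DESeq2 called Mlkl as higher and 1 other gene, Bcl2l11, as lower. Every KO heart lay below every WT heart for Bcl2l11 at both stages.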

How the data were processed

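RNA of 12 whole embryonic hearts was measured by RNA sequencing, with 3 embryos in each of 4 groups set by the labels' genotype and time point. Per the labels' protocols, a NEBNext Ultra kit was used. The authors deposited raw counts per gene symbol, with no normalization, in 1 table of 45664 rows. Per the submitters' processing notes, GRCm38 was the genome build, and DESeq, DESeq2, featureCounts and STAR 2.5.3a are listed as tools, with no role or order. Strand setting, treatment of multi-mapping reads and annotation release are not given in the sources used here. Symbols turned into dates took 27 rows, none of them a gene described here.

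In R 4.3.3, edgeR 4.0.16 kept 20691 genes by filterByExpr, scaled libraries by TMM, and fitted 1 quasi-likelihood model with robust dispersion estimates to the 4 group means of the 12 libraries. It had 8 residual degrees of freedom and a common biological coefficient of variation of 17.1%. Two-sided F-tests got Benjamini-Hochberg adjusted p-values across the tested genes, with 0.05 as threshold. The SE is the absolute log2 fold change over the square root of F. P-values set each difference against the spread between embryos within groups. At E13.5 these embryos are littermates, so the spread between litters is not measured there. The script was checked on simulated counts.

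The 33 genes, the other lists and the alternatives were chosen with earlier results of these data known. Values in every embryo are given for Trp53, Mdm2, Cdkn1a, each gene called in any of 6 comparisons and the gene with the smallest averaged p in each arm. Outside the 33, Ino80 and at most 3 called genes of each other list are named. The result of 1 gene among the further p53 targets is not reported here. Plk3 and Gdf15 were given in every embryo after their values were seen. Gene overlaps come from GENCODE M21 on GRCm38 and promoters from RefSeq on GRCm38.p6. The alternatives were DESeq2 1.42.0, RLE size factors, fitting without a low-count filter, fitting the compared libraries alone, a litter block, a Y-linked covariate, leaving out each library, leaving out litter 3, and leaving out the KO hearts E13.5 replicate 5 and E14.5 replicate 2 together. A fit without robust dispersion estimates was added after seeing the data.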

Additional observations from a re-analysis of the deposited data

How the results depend on the processing

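The number of p53 pathway genes called depended on the tool and the libraries, while no called gene changed direction. The number of all genes called shifted too, and is given in brackets. At E13.5, where 1 gene was called [22], DESeq2 called 3 [319], the fit of only the libraries compared 2 [95] and the fit without the KO hearts lowest in leukocyte RNA (E13.5 replicate 5, E14.5 replicate 2) also 2 [29]. Without a low-count filter, with the Y-linked covariate or without litter 3 it was 0 [40, 9 and 71], and over the fits that left out 1 library 0 to 2 [2 to 69]. At E14.5, also with 1 call [46], DESeq2 called 6 [343], the fits with no filter, with litter as a block or with the Y-linked covariate 2 each [77, 92 and 59], only the libraries compared 0 [2], and the fits without 1 library 1 to 2 [10 to 107]. Averaged over stages, where 4 were called [293], DESeq2 called 9 [910] with all 4 among them, the fit without those KO hearts called 2 [63], and the fits without 1 library 3 to 8 [125 to 483]. The 8 [444], without E14.5 KO replicate 4, added Plk3, Tnfrsf10b, Aen and Gdf15. The fit without litter 3 called 3 [333], which kept Eda2r and Zmat3 and added Ccng1. Between stages in WT, with 5 calls [836], the litter block gave 2 [299], only the libraries compared 3 [587], litter 3 left out 1 [95], and the fits without 1 library 0 to 6 [8 to 1081]. The 0 came without E13.5 WT replicate 1 or 4 or E14.5 WT replicate 7.2 [8, 29 and 22]. In KO, with 4 calls [774], the litter block gave 2 [332], only the libraries compared 2 [289], the same KO hearts left out 1 [130], and the fits without 1 library 1 to 5 [66 to 1076]. The interaction gave 0 under every alternative run. RLE size factors and the fit without robust dispersion estimates kept each count of members. The causes of these shifts were not tested. No paired analysis was possible because the groups compared share fewer than 2 replicate numbers. The blocked fits given here use a term for litter 3, which the E14.5 genotypes share, and do not part stage from litter. With 3 embryos a group, small changes in scarce genes such as Fas, Gdf15, Ddb2 and Pmaip1 were hard to detect.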

Other observations

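Across all genes, 0.831% were called as higher in KO hearts in the averaged comparison of edgeR. Of 18 interferon response genes, such as Bst2, a tether of budding virus (1.36 ± 0.17 SE, adjusted p = 0.00446), Ifitm3 (1.47 ± 0.19 SE, adjusted p = 0.00639) and Ifih1, a sensor of viral RNA (1.39 ± 0.23 SE, adjusted p = 0.0114), 10 rose in that comparison and the median log2 fold change was 1.65. Their summed level was 66.5 to 81.8 CPM in the 6 WT hearts and 98.8 to 228.6 CPM in the 6 KO hearts. The lowest KO sum was that of E14.5 KO replicate 1, whose mean log2 CPM of 1.15 lay next to the highest WT mean, 1.10. The highest sum was that of E14.5 KO replicate 2, which also held the most Eda2r and Cdkn1a. Among E13.5 KO hearts the lowest sum was that of replicate 5 (110.8 CPM). That heart held the most Eda2r and Cdkn1a of its stage, its Cdkn1a (41.3 CPM) close to that of replicate 7 (40.6 CPM). A link between the interferon and p53 pathway levels was not tested. Of 14 integrated stress response genes, 12 lay above 0 (median 0.11) and 2 rose: Trib3, a pseudokinase induced by Atf4 and Ddit3 (0.84 ± 0.15 SE, adjusted p = 0.0161), and Ppp1r15a, the phosphatase subunit that restores translation (0.43 ± 0.10 SE, adjusted p = 0.0436). Their summed level in E14.5 KO replicate 4 (481.9 CPM) lay within the E14.5 WT range (480.6 to 500.0 CPM).

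Of 12 endothelial markers, Pecam1 and Cldn5, both junction proteins, fell (-0.47 ± 0.05 SE, adjusted p = 0.000785, and -0.85 ± 0.12 SE, adjusted p = 0.00602), and Eng, a co-receptor for TGF-beta family ligands, rose (0.30 ± 0.06 SE, adjusted p = 0.0193). Of the 12, 8 lay above 0 averaged (median 0.08), 4 at E13.5 (median -0.08) and 10 at E14.5 (median 0.21). At an unadjusted p under 0.05, 7 were above 0 and 2 below at E14.5 (9.59% of all genes in either direction). All 12 interaction values were above 0, 5 of them at an unadjusted p under 0.05 (3.61% of all genes), and 0 were called. The part of endothelial content in the p53 pathway values was not tested. Of 14 immediate-early genes, 12 cardiomyocyte, 10 erythroid and 6 liver markers tested, none was called in the averaged comparison by edgeR, with 3, 1, 2 and 0 of them at an unadjusted p under 0.05. DESeq2 called none of these but 1 erythroid gene, Hba-x. The summed erythroid level still ran from 4911 CPM in E14.5 KO replicate 2 to 41950 CPM in E14.5 KO replicate 1. In WT hearts it ran from 6916 CPM in E13.5 replicate 1 to 18420 CPM in E14.5 replicate 7.2. The part of erythroid content in the other values was not tested.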
